A study of Mus musculus with 23 samples.

Results

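Expression of 10 genes of colonocyte ion, water and aldosterone handling was followed in the mouse colon: Slc26a3, Slc9a3, Aqp8, Car1, Car2, Car4, Scnn1a, Hsd11b2, Nr3c2 and Sgk1. They were chosen by name from the known physiology of the surface colonocyte, with earlier results of these data known. They make up 10 of the 18194 genes measured, and no count over them is independent evidence. Each gene is represented by the probe set (the group of array probes that reads 1 transcript region) that names it alone and is brightest on average. The 10 genes had 15 such probe sets, since Slc26a3 had 4 and Slc9a3 and Car4 had 2 each.

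The study asked how loss of Fn14 alters chronic colitis. Total RNA of colons was read on 23 oligonucleotide arrays that fall into 4 groups of BALB/c mice: Fn14 knockout (KO) with TNBS (n = 7), wild type (WT) with TNBS (n = 6), untreated KO (n = 5) and untreated WT (n = 5). Tnfrsf12a encodes Fn14, which binds the cytokine TWEAK, and TNBS, dissolved in ethanol, haptenates colonic proteins and so brings on colitis. Rectal doses of a 0.2% solution were given for 6 weeks, with the volume raised stepwise between 1 and 2 ul for each g of mouse, and colons were collected 3 days after the final dose. The labels name no promoter or cell type for the knockout, give no age, and do not say whether untreated mice received ethanol, so each TNBS difference also covers the injections and the solvent. Samples are numbered with no word on whether each came from its own mouse, so the p-values reflect only how far these samples spread.

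The surface colonocyte takes up sodium chloride through paired exchangers in its apical membrane: Slc26a3 (also called DRA) trades luminal chloride for bicarbonate, and Slc9a3 (NHE3) trades luminal sodium for protons. Carbonic anhydrases supply both exchangers by hydrating carbon dioxide, and water follows the salt, in part through channels such as Aqp8. In the distal colon aldosterone binds the mineralocorticoid receptor (Nr3c2), which Hsd11b2 shields from corticosterone by inactivating that hormone, and Sgk1 is a kinase that this receptor induces and that keeps the epithelial sodium channel, whose alpha subunit is Scnn1a, in the membrane.

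Sequences just upstream of the start were at hand for 6 of the 10 genes, in 11 windows of 250 bases each, from RefSeq on build GRCm38.p6. The 4 genes below are shown, with 1 window each, because Sgk1 differed most clearly between the genotypes in its response to TNBS, and because Aqp8, Car4 and Slc26a3 fell together with TNBS in KO colons. Capitals mark matches on either strand to the motifs searched, which were the element bound by corticosteroid receptors (the arms AGAACA and TGTTCT with 3 free bases between them), TGTTCT alone (1 arm of that element), NF-kappaB (GGG, 5 free bases and CC), TGANTCA (AP-1), TTTATG (CDX) and CAAAGTCCA (HNF4).
Sgk1 (chr10:21993640-21993889, plus strand): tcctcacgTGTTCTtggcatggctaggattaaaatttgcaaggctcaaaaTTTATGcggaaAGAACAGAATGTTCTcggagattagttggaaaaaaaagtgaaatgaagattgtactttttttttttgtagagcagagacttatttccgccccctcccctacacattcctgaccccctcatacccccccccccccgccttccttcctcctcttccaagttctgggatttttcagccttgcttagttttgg
Aqp8 (chr7:123462044-123462293, plus strand): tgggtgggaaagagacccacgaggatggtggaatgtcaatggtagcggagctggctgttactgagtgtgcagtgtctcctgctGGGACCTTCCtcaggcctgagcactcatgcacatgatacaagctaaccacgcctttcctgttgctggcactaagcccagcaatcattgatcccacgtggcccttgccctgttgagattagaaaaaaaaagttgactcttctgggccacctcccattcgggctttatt
Car4 (chr11:84957504-84957753, plus strand): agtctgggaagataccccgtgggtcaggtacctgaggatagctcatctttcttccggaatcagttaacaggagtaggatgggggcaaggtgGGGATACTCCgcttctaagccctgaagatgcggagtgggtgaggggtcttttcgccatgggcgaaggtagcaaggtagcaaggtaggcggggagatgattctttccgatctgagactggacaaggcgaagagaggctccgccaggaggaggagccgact
Slc26a3 (chr12:31437969-31438218, plus strand): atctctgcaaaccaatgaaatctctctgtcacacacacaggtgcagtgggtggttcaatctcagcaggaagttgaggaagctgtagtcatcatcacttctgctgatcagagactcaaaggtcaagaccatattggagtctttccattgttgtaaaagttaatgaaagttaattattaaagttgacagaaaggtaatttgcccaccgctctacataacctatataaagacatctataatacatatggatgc

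RefSeq gives Sgk1 several starts, which account for 6 of the 11 windows. The Sgk1 window shown held the complete corticosteroid receptor element, written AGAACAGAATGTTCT, 189 to 175 bases before the start it leads to, and the other Sgk1 windows did not. The window printed is thus not typical of the Sgk1 windows. Of all 32851 windows of the same length, 3 held the element (0.00913%), this Sgk1 window included. The arm TGTTCT, which overlaps the element, was in 3 of the 11 windows, each of them upstream of Sgk1, and in 16.1% of all windows. The NF-kappaB letters were in 6 of the 11 windows, among them GGGACCTTCC in Aqp8 and GGGATACTCC in Car4, against 45.8% of all windows. The CDX letters stood in the same Sgk1 window and in 10.8% of all windows. The AP-1 and HNF4 letters were in none of the 11 windows and in 6.75% and 0.384% of all windows. The Slc26a3 window held none of the 6 motifs.

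Arrays of 1 group correlated at r = 0.989 to 0.998 over all genes. Tnfrsf12a, read as the check of the genotype, stood at log2 3.84 to 4.17 on KO arrays with TNBS against 6.77 to 8.25 on WT arrays with TNBS, and at 4.03 to 4.17 on untreated KO against 5.86 to 7.16 on untreated WT arrays. All 11 measured markers of absorptive colonocytes were above the floor, the minimum of log2 2.17 at which the deposited values end, on every array. Their mean was on average 12.10 in KO with TNBS, 11.88 in WT with TNBS, 12.24 in untreated KO and 12.20 in untreated WT colons. The mean of 11 pan-epithelial markers was 12.88, 12.84, 12.95 and 12.92 in the same order. Lists of other cell types moved with the groups as well, as the plot of marker list means shows. The mean of 8 leukocyte markers was 9.57 to 10.72 in KO with TNBS, 10.71 to 11.03 in WT with TNBS, 9.10 to 9.88 in untreated KO and 9.70 to 10.13 in untreated WT colons. The mean of 11 markers of squamous epithelium, which lines the anal canal, was 4.83 to 9.16 in KO with TNBS, 5.15 to 8.19 in WT with TNBS, 3.35 to 6.72 in untreated KO and 3.09 to 4.69 in untreated WT colons. Its keratin Krt14 rose with TNBS by 3.21 ± 0.80 in KO and 4.11 ± 0.82 in WT (log2, SE, adjusted p = 0.0163 and 0.00178 in limma over all genes). The mean of 10 skeletal muscle markers was 5.78 to 8.01 in untreated KO against 2.86 to 5.04 in untreated WT colons. The mean of 7 small intestine markers was 8.24 to 8.97 on 4 of the 5 untreated KO arrays and 7.22 and 8.95 on untreated WT arrays 4 and 5, against 5.27 to 6.10 on all other arrays. In bulk tissue, fewer colonocytes and less RNA of a gene per colonocyte cannot be told apart.

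**Figure D1:**
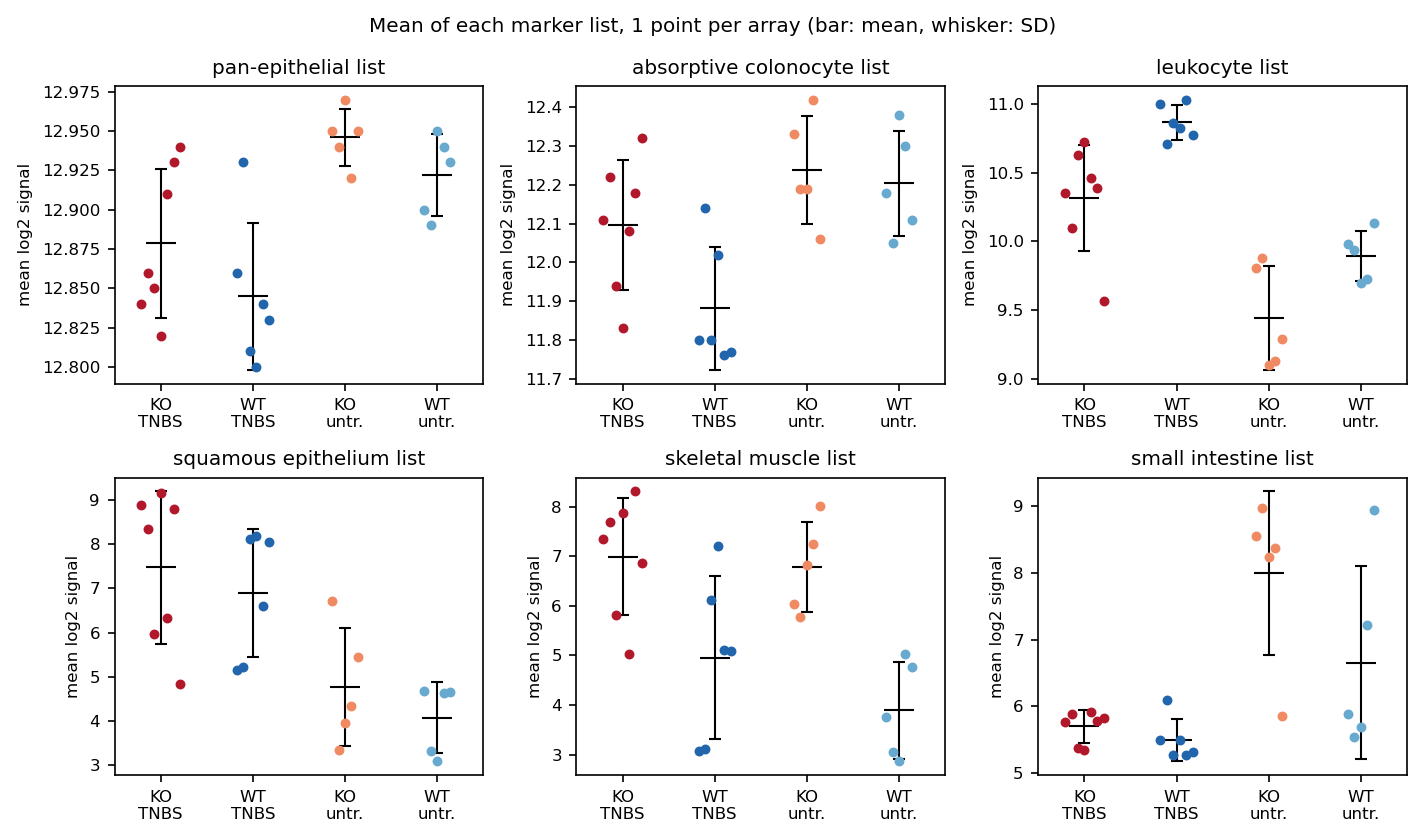
Mean log2 signal of 6 marker lists on each of the 23 arrays, with the vertical axis scaled for each list (points: arrays, bar: group mean, whisker: SD). Leukocyte means were highest on average in WT with TNBS (10.71 to 11.03), and the skeletal muscle means of untreated KO (5.78 to 8.01) lay above those of untreated WT arrays (2.86 to 5.04).

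The clearest single pattern belonged to Sgk1. With TNBS it fell in WT colons and did not pass the test in KO colons. Between the genotypes, it was lower in KO than in WT without TNBS and higher in KO than in WT with TNBS. Its log2 signal was 13.13, 13.24 and 13.41 (lowest, median, highest) in KO with TNBS and 12.86, 13.02 and 13.10 in WT with TNBS. Untreated KO arrays read 13.27, 13.25, 13.31, 13.24 and 13.26, and untreated WT arrays 13.47, 13.45, 13.48, 13.44 and 13.37. Every WT array with TNBS was thus below every array of the other 3 groups, every untreated WT array was above every untreated KO array, and KO arrays with TNBS overlapped both untreated groups.

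The TNBS difference of Sgk1 was -0.44 ± 0.05 in WT (log2, SE), a 1.36-fold lower signal with an adjusted p of 2.28e-06 (limma with Benjamini-Hochberg adjustment over all genes, here and below, threshold 0.05). In KO it was -0.02 ± 0.04, with a 95% interval of -0.12 to 0.07 (adjusted p = 0.911). The difference between these effects was itself tested and was 0.42 ± 0.06 (interval 0.28 to 0.55, adjusted p = 0.00312), which made Sgk1 the 1 gene of the 10 to pass this test, against 2% of all genes. Relative to WT, Sgk1 in KO was higher by 0.24 ± 0.04 with TNBS (adjusted p = 0.00124) and lower by 0.18 ± 0.05 without it (log2 difference -0.18, adjusted p = 0.0367). The WT fall passed under each of 42 other settings, leaving out any 1 array included, and the difference of effects under 40 of 41, with an adjusted p of 0.734 only when a log2 change over 0.25 was demanded. The call without TNBS was less stable: it was lost when any 1 of WT arrays 1, 2, 3 and 4 or KO arrays 1, 2, 4 and 5 was left out.

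Across the arrays, the means of the leukocyte list were on average 10.32 in KO and 10.87 in WT with TNBS, against 9.44 in untreated KO and 9.90 in untreated WT colons. With that mean as a covariate, the difference of effects of Sgk1 and its fall with TNBS in WT still passed, and its difference between KO and WT with TNBS did not.

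**Figure D2:**
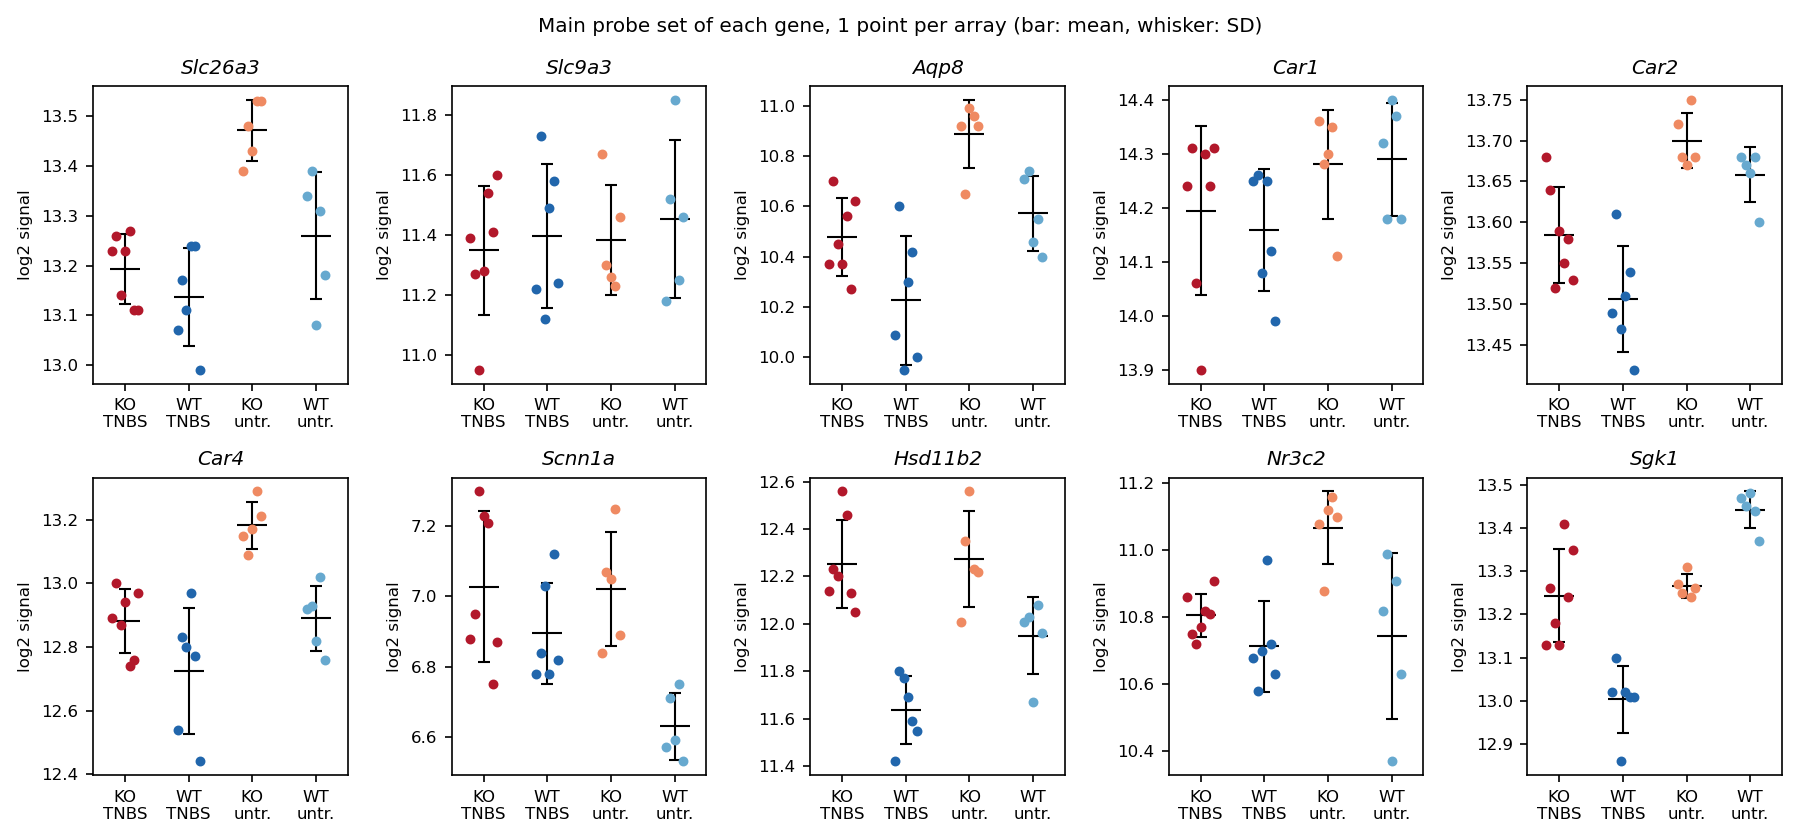
Log2 signal of the main probe set of the 10 genes on each array, by group (points: arrays, bar: mean, whisker: SD), each gene on its own vertical scale. For Sgk1 the 6 WT arrays with TNBS lie lowest (12.86 to 13.10) and the 5 untreated WT arrays highest (13.37 to 13.48).

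Of the 10 genes, 4 fell and 0 rose with TNBS in KO colons, where 8.55% of all genes passed, 4.08% upward and 4.47% downward. In WT colons also 4 fell and 0 rose, where 16.5% of all genes passed, 10.2% upward and 6.27% downward. Aqp8 and Car2 fell in both genotypes, Slc26a3 and Car4 in KO, and Sgk1 and Hsd11b2 in WT. The median log2 difference over the 10 genes was -0.10 in KO and -0.14 in WT, against 0 over all genes in each. Arrays with TNBS lay wholly below untreated ones for 2 genes in KO (Slc26a3 and Car4) and wholly above for 0, as for 1.9% and 1.97% of all genes. In WT they lay wholly below for 1 (Sgk1) and wholly above for 1 (Scnn1a), as for 3.15% and 6.99% of all genes. The log2 difference was below 0 for 9 of the 10 in each genotype. It was above 0 for 1 of the 10 in each, and for 38.6% of all genes in KO and 57% in WT. Between the genotypes, the test of the difference of these effects passed for Sgk1 alone (1 of 10 at an unadjusted p under 0.05 as well), with 0.621% of all genes passing upward and 1.37% downward. That difference was above 0 for 5 of the 10 and for 39.6% of all genes. Only 0.0715% to 13.4% of all genes were brighter than each of the 10, except Scnn1a with 47.8%. Shares over all genes are low for genes this bright. With genes dimmer than the median gene left out, 15.8% passed for TNBS in KO, 26.8% in WT and 4.78% for the difference of effects. In that setting 4, 5 and 1 of the 10 were called.

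In the genotype comparisons most calls among the 10 genes were upward. With TNBS, 2 of the 10 genes rose in KO relative to WT (Hsd11b2 and Sgk1) and 0 fell, where 10.5% of all genes passed, 3.73% upward and 6.72% downward. Without TNBS, 4 rose (Slc26a3, Car4, Scnn1a and Nr3c2) and 1 fell (Sgk1), where 4.83% of all genes passed, 2.92% upward and 1.91% downward. The median log2 difference over the 10 was 0.11 with TNBS and 0.25 without it, against 0 over all genes in each. It was above 0 for 9 of the 10 with TNBS and 7 without it, as for 41.3% and 46.8% of all genes. With genes dimmer than the median gene left out, 18.6% of genes passed with TNBS and 12% without it, and 2 and 6 of the 10. The 2 of 10 with TNBS were near that share. These 4 comparisons share groups of arrays with each other, so their values are given side by side and none counts as a repeat of another. Untreated KO and WT with TNBS each enter a TNBS and a genotype comparison with opposite signs. Opposite directions of the TNBS and genotype differences are thus partly built in.

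The counts without TNBS rested on single arrays. None of the 10 genes was called without WT array 3 or without KO array 4, 1 without WT array 1 or 5 or KO array 2, 3 or 5, and 3 without WT array 2, WT array 5 with TNBS, KO array 1 or KO array 1 or 3 with TNBS. With the mean of the skeletal muscle list or of the small intestine list as a covariate 0 were called there, and with that of the leukocyte list 1. For TNBS in KO the count was 1 without untreated KO array 4, 1 (Slc26a3) with the squamous covariate and 0 with the leukocyte covariate. For TNBS in WT it was 2 without untreated WT array 1, 2 or 4 or WT array 1 or 6 with TNBS, 2 (Sgk1 and Car2) with the squamous covariate and 1 (Sgk1) with the leukocyte covariate. For KO against WT with TNBS it was 4 without WT array 2 with TNBS, where Aqp8 and Car2 passed as well.

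**Figure D3:**
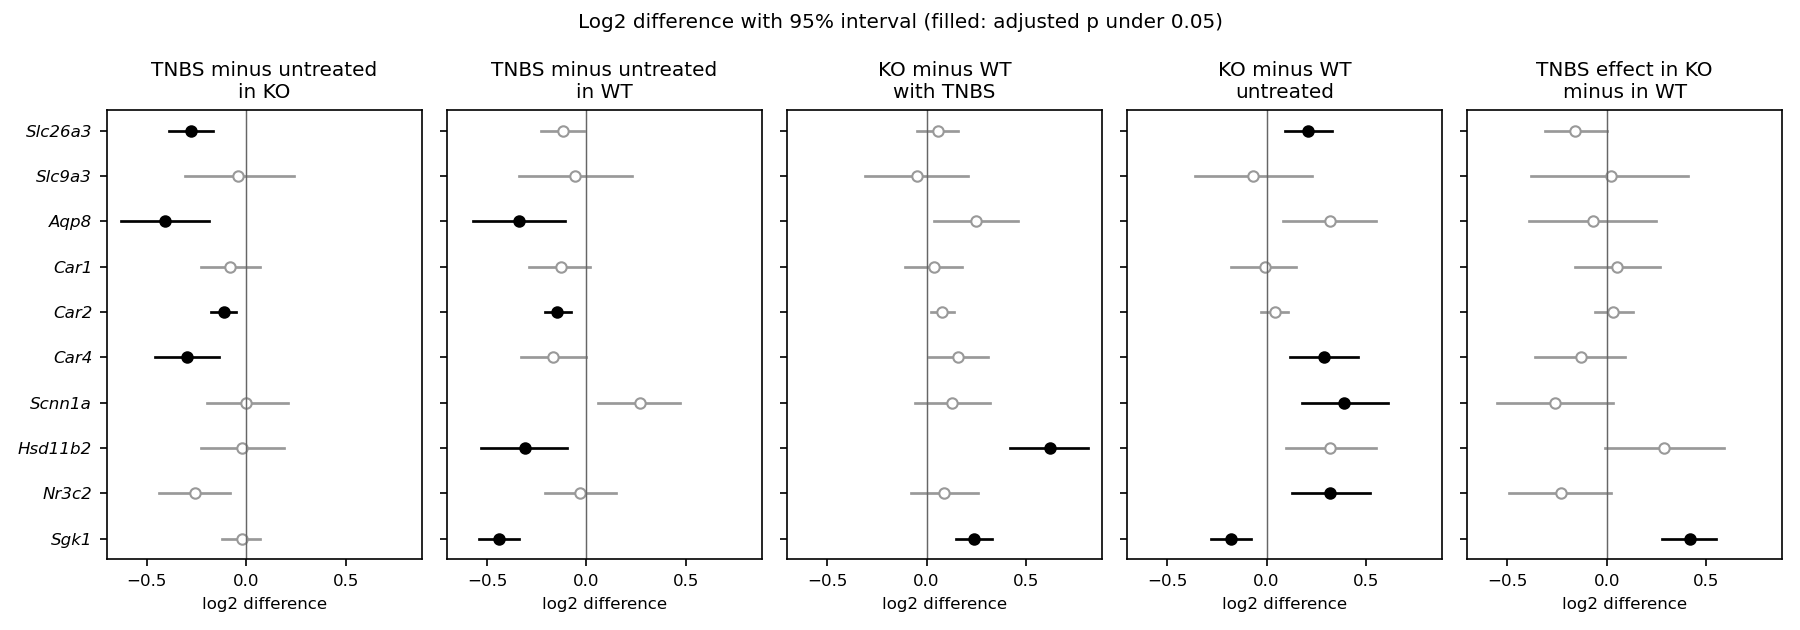
Log2 differences of the 10 genes (horizontal axis) with their 95% intervals in 5 comparisons, filled where the adjusted p is under 0.05. From left to right the panels show TNBS minus untreated in KO and in WT, KO minus WT with and without TNBS, and the TNBS effect in KO minus that in WT, where Sgk1 alone is filled (0.42).

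Slc26a3, the apical chloride and bicarbonate exchanger, was highest in untreated KO colons and fell there with TNBS. Its log2 signal was 13.11, 13.23 and 13.27 (lowest, median, highest) in KO with TNBS, against 13.39, 13.48, 13.43, 13.53 and 13.53 in untreated KO. It was 12.99, 13.14 and 13.24 in WT with TNBS, against 13.34, 13.39, 13.08, 13.31 and 13.18 in untreated WT. Every untreated KO array was above every array of the other groups, although the lowest of them and the highest untreated WT array both round to 13.39.

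With TNBS, Slc26a3 fell by 0.28 ± 0.05 in KO (log2, SE, adjusted p = 0.00315), a call kept under 40 of 42 other settings and whenever 1 array was left out. In WT the difference was -0.12 ± 0.05 (adjusted p = 0.147). Without TNBS, Slc26a3 was higher in KO than in WT by 0.21 ± 0.06 (adjusted p = 0.0366), a call lost without WT array 3 or 5 or KO array 2, 3, 4 or 5, after quantile normalization and after median centring. With TNBS the difference between KO and WT was 0.06 ± 0.05 (adjusted p = 0.589). The difference between the TNBS effects was -0.16 ± 0.08 with an interval of -0.31 to 0 (adjusted p = 0.325).

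The other 3 probe sets of Slc26a3 differed in the same direction and by more in untreated KO against untreated WT and with TNBS in KO. In order of mean signal (13.25, 12.03, 10.96 and 10.46), the 4 probe sets differed between untreated KO and untreated WT by 0.21, 0.33, 0.77 and 0.64. Adjusted over all 34958 probe sets that name 1 gene, the p was 0.0437, 0.0586, 0.00822 and 0.00875. With TNBS in KO they fell by 0.28, 0.48, 0.74 and 0.61, and all 4 passed. The probe set with a mean of 10.96 read 11.34, 11.61, 11.49, 11.64 and 11.90 in untreated KO, against 11.01, 11.04, 10.35, 10.99 and 10.76 in untreated WT, with no overlap. The test of the difference between the TNBS effects passed for none of them, with log2 values of -0.16, -0.26, -0.57 and -0.63 and adjusted p of 0.355, 0.345, 0.162 and 0.0671. In each of these 3 comparisons the size of the Slc26a3 difference depended on the probe set, and the brightest one gave the smallest.

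**Figure D4:**
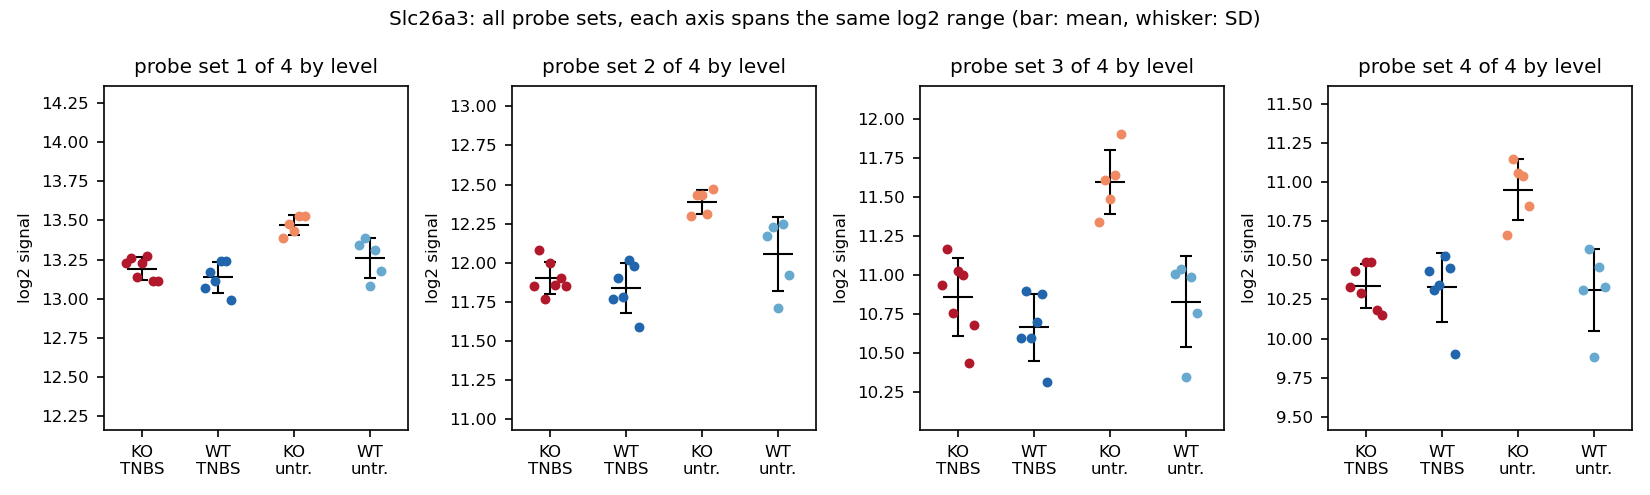
Log2 signal of the 4 Slc26a3 probe sets on each array, by group, in order of mean signal and on axes that span the same log2 range (points: arrays, bar: mean, whisker: SD). The gap between untreated KO and untreated WT is 0.21 for the first probe set and 0.77 for the third.

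Slc9a3, the sodium and proton exchanger, passed in none of the 5 comparisons. Its log2 signal spanned 10.95, 11.39 and 11.60 (lowest, median, highest) in KO with TNBS and 11.12, 11.36 and 11.73 in WT with TNBS. Untreated KO arrays read 11.67, 11.30, 11.26, 11.23 and 11.46, and untreated WT arrays 11.18, 11.52, 11.85, 11.25 and 11.46. All 4 groups overlapped, with log2 differences of -0.04 ± 0.13 for TNBS in KO (interval -0.31 to 0.24) and -0.06 ± 0.14 in WT (-0.34 to 0.23). A second Slc9a3 probe set stood at the floor on all arrays but 1, where it read 2.19, and gives no information. The probe sets of Slc9a3 thus disagreed in level, and whether the main one reads the Slc9a3 transcript alone was not tested.

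Aqp8, a water channel of the colonocyte surface, fell with TNBS in both genotypes. Its log2 signal was 10.27, 10.45 and 10.70 (lowest, median, highest) in KO with TNBS, against 10.92, 10.65, 10.99, 10.96 and 10.92 in untreated KO. In WT it was 9.95, 10.20 and 10.60 with TNBS, against 10.71, 10.74, 10.46, 10.55 and 10.40 untreated. The groups overlapped in both genotypes, in KO only through the 10.65 of untreated array 2.

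The fall of Aqp8 was 0.41 ± 0.11 in KO (adjusted p = 0.0198), lost without untreated KO array 3 or 4, and 0.34 ± 0.11 in WT (adjusted p = 0.0369), lost without any 1 of untreated WT arrays 1, 2 and 4 and WT arrays 1, 3 and 6 with TNBS. Between KO and WT, Aqp8 differed by 0.25 ± 0.10 with TNBS (adjusted p = 0.132) and by 0.32 ± 0.11 without it (adjusted p = 0.119), values that did not pass. None of the 10 other aquaporins measured passed in any of the 5 comparisons, with medians within 0.01 of 0. Of all genes 2% to 16.5% passed in these comparisons, so a count of 0 of 10 does not set Aqp8 apart.

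Of the carbonic anhydrases, Car2 (cytosolic) fell with TNBS in both genotypes and Car4 (anchored to the apical membrane) in KO. Car2 read 13.52, 13.58 and 13.68 (lowest, median, highest) in KO with TNBS, against 13.72, 13.68, 13.67, 13.75 and 13.68 in untreated KO. In WT it read 13.42, 13.50 and 13.61 with TNBS, against 13.68, 13.67, 13.66, 13.68 and 13.60 untreated. The groups overlapped in both genotypes, and the falls were small: 0.11 ± 0.03 in KO (adjusted p = 0.023, lost without untreated KO array 4 or KO array 3 with TNBS) and 0.15 ± 0.03 in WT (adjusted p = 0.00255, kept whenever 1 array was left out). Between KO and WT, Car2 differed by 0.08 ± 0.03 with TNBS (adjusted p = 0.0976) and by 0.04 ± 0.03 without it (adjusted p = 0.555).

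Car4 read 12.74, 12.89 and 13.00 (lowest, median, highest) in KO with TNBS, against 13.15, 13.09, 13.17, 13.29 and 13.21 in untreated KO. In WT it read 12.44, 12.79 and 12.97 with TNBS, against 12.92, 12.93, 12.82, 13.02 and 12.76 untreated. As for Slc26a3, the untreated KO arrays stood above all others without overlap. Car4 fell by 0.30 ± 0.07 with TNBS in KO (adjusted p = 0.0169, lost without untreated KO array 4), while the difference in WT was -0.17 ± 0.08 (adjusted p = 0.168). Without TNBS it was higher in KO than in WT by 0.29 ± 0.08 (adjusted p = 0.0428), a call that was kept under 21 of 42 other settings only and was lost when any 1 of 12 arrays was left out, among them all 5 untreated KO arrays. Its second probe set gave -0.28 ± 0.08 for TNBS in KO and 0.27 ± 0.08 for KO against WT without TNBS, of which the first passed and the second did not (adjusted p = 0.0383 and 0.0822 over all probe sets).

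Car1, another cytosolic form, passed in none of the 5 comparisons. Its values ran over 13.90, 14.24 and 14.31 in KO with TNBS, 13.99, 14.18 and 14.26 in WT with TNBS, 14.11, 14.30 and 14.36 in untreated KO and 14.18, 14.32 and 14.40 in untreated WT (lowest, median, highest). All groups overlapped, and the TNBS differences were -0.08 ± 0.07 in KO (interval -0.23 to 0.07) and -0.13 ± 0.07 in WT (-0.29 to 0.02). Between KO and WT, Car1 differed by 0.04 ± 0.07 with TNBS and by -0.01 ± 0.08 without it. Of 13 other carbonic anhydrases, 1 was at the floor on all arrays. In the 5 comparisons, where 2% to 16.5% of all genes passed, 1 of the 13 passed in 1. This was Car15 for TNBS in WT (log2 difference -0.20 ± 0.07, adjusted p = 0.046). Its signal was dim, at most 3.72 in WT with TNBS against 3.72 to 4.07 in untreated WT, and no detection call was used here, so the size of that difference is uncertain.

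Hsd11b2, the enzyme that inactivates corticosterone in aldosterone's target cells, had the largest genotype difference of the 10 with TNBS. Its log2 signal was 12.05, 12.20 and 12.56 (lowest, median, highest) in KO with TNBS, against 11.42, 11.64 and 11.80 in WT with TNBS. Untreated KO arrays read 12.01, 12.35, 12.56, 12.23 and 12.22, and untreated WT arrays 12.01, 12.03, 11.67, 12.08 and 11.96. Every KO array with TNBS was above every WT array with TNBS, while the untreated groups overlapped.

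With TNBS the KO minus WT difference of Hsd11b2 was 0.62 ± 0.10, a 1.53-fold higher signal (adjusted p = 0.00043), kept under 41 of 42 other settings, the leukocyte covariate included. KO arrays with TNBS all lay above the WT arrays with TNBS for 2 of the 10 genes (Hsd11b2 and Sgk1), as for 0.956% of all genes, and none lay wholly below, as did 2.68%. Without TNBS the difference was 0.32 ± 0.11 (adjusted p = 0.0922). TNBS changed Hsd11b2 in WT by -0.31 ± 0.10 (adjusted p = 0.045), a fall that was kept under 17 of 42 other settings only and lost without any 1 of 14 arrays, while the difference in KO was -0.02 ± 0.10 (interval -0.23 to 0.19). The test of the difference between these effects did not pass (0.29 ± 0.14, adjusted p = 0.34).

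Nr3c2, the mineralocorticoid receptor, was highest in untreated KO colons. It read 10.72, 10.81 and 10.91 (lowest, median, highest) in KO with TNBS, 10.58, 10.69 and 10.97 in WT with TNBS, 11.08, 10.88, 11.12, 11.16 and 11.10 in untreated KO, and 10.82, 10.99, 10.37, 10.91 and 10.63 in untreated WT. The untreated groups overlapped through 1 KO array. Without TNBS the KO minus WT difference of 0.32 ± 0.09 passed narrowly (adjusted p = 0.0478), and it did so under 11 of 42 other settings only, being lost without any 1 of 18 arrays. The TNBS difference in KO was -0.26 ± 0.09 (adjusted p = 0.061) and that in WT -0.03 ± 0.09 (adjusted p = 0.999).

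Scnn1a, the alpha subunit of the epithelial sodium channel, was lowest in untreated WT colons. It read 6.75, 6.95 and 7.30 (lowest, median, highest) in KO with TNBS, 6.78, 6.83 and 7.12 in WT with TNBS, 6.84, 7.07, 7.05, 7.25 and 6.89 in untreated KO, and 6.57, 6.71, 6.59, 6.75 and 6.53 in untreated WT. Every untreated KO array and every WT array with TNBS was above every untreated WT array. Without TNBS, Scnn1a was higher in KO than in WT by 0.39 ± 0.10 (1.31-fold, adjusted p = 0.0341), a call kept under 29 of 42 other settings. The call was lost without WT array 1, 3 or 5 or KO array 2, 3 or 4. It was also lost after quantile normalization, after median centring and in the 2 groups alone. The skeletal muscle, leukocyte or small intestine covariate and a minimum log2 change of 0.25 removed it as well. The TNBS difference was 0.00 ± 0.10 in KO and 0.27 ± 0.10 in WT (adjusted p = 0.0767), and the difference between these effects was -0.26 ± 0.14 (adjusted p = 0.384). Of the 10 genes, 3 (Slc26a3, Car4 and Scnn1a) lay wholly higher in untreated KO than in untreated WT and 1 (Sgk1) wholly lower, as did 3.39% and 2.18% of all genes.

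The order of the group means differed among the 10 genes. It ran untreated KO, untreated WT, KO with TNBS and WT with TNBS, from high to low, for Slc26a3, Aqp8, Car2 and Car4, and untreated KO, KO with TNBS, untreated WT and WT with TNBS for Hsd11b2 and Nr3c2. In both orders the neighbours overlapped in their arrays, except untreated KO above untreated WT for Slc26a3 and Car4. For Sgk1, untreated WT stood at the top, apart from its neighbour untreated KO, and WT with TNBS stood apart at the bottom, and for Scnn1a untreated WT stood apart at the bottom. WT with TNBS was lowest for 8 of the 10, all but Slc9a3 and Scnn1a, but its arrays overlapped those of the next group for all of these but Sgk1. The share of all genes with that group lowest was not counted, so this count describes the 10 genes only. The span from the highest to the lowest group mean ran over 0.10 in log2 for Slc9a3 to 0.66 for Aqp8.

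The wider list of corticosteroid receptor partners and targets had 16 genes measured. With TNBS 2 rose and 0 fell in KO, and 2 rose and 3 fell in WT. Over all genes 4.08% rose and 4.47% fell in KO, and 10.2% rose and 6.27% fell in WT. In KO relative to WT, 0 rose and 5 fell with TNBS, where 3.73% of all genes rose and 6.72% fell, and 0 rose and 3 fell without it, where 2.92% rose and 1.91% fell. The medians of the list were 0.08, -0.14, -0.02 and -0.17 in these comparisons.

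Hsd11b1 regenerates active corticosterone, the reverse of the reaction that Hsd11b2 catalyses. It read 7.18, 7.80 and 8.41 (lowest, median, highest) in KO with TNBS and 8.58, 8.75 and 9.23 in WT with TNBS. In untreated KO it read 7.01, 7.51 and 8.13, and in untreated WT 7.52, 7.76 and 7.87. WT arrays with TNBS lay above all other arrays. With TNBS the KO minus WT difference was -1.06 ± 0.19 (adjusted p = 0.00122), opposite in sign to the 0.62 of Hsd11b2, and without TNBS -0.24 ± 0.21 (adjusted p = 0.648). The TNBS effect was 0.24 ± 0.20 in KO (adjusted p = 0.562) and 1.06 ± 0.20 in WT (adjusted p = 0.0012), and the difference between the effects did not pass (-0.82 ± 0.28, adjusted p = 0.138).

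Tsc22d3, also called GILZ and known as a target of the glucocorticoid receptor, was lower in KO than in WT by 0.62 ± 0.16 with TNBS (log2 difference -0.62, adjusted p = 0.0162) and by 0.75 ± 0.18 without it (log2 difference -0.75, adjusted p = 0.0216). Sgk3, a kinase related to Sgk1, was lower in KO both with TNBS (-0.28 ± 0.07, adjusted p = 0.0173) and without it (-0.53 ± 0.08, adjusted p = 0.00133), with no overlap of arrays in either. Its untreated KO values of 7.28 to 7.83 lay below the untreated WT values of 8.04 to 8.15. The clock gene Per1, known to respond to glucocorticoids, rose with TNBS by 0.97 ± 0.23 in KO and 0.90 ± 0.24 in WT (adjusted p = 0.0129 each). The phosphatase Dusp1 was lower in KO than in WT with TNBS (-0.49 ± 0.11, adjusted p = 0.00578). In WT with TNBS the receptor chaperone Hsp90aa1 and its partner Fkbp4 fell by 0.36 ± 0.09 and 0.51 ± 0.14. Sgk3 rose with TNBS in KO (0.26 ± 0.08, adjusted p = 0.0418). The remaining called genes, named after their values were seen, were Zbtb16 for TNBS in WT (-0.95) and Cebpd for KO against WT with TNBS (-0.54) and without it (-0.77). The leukocyte means given above moved with the same groups, and their part in these genes' differences was not tested.

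**Figure D5:**
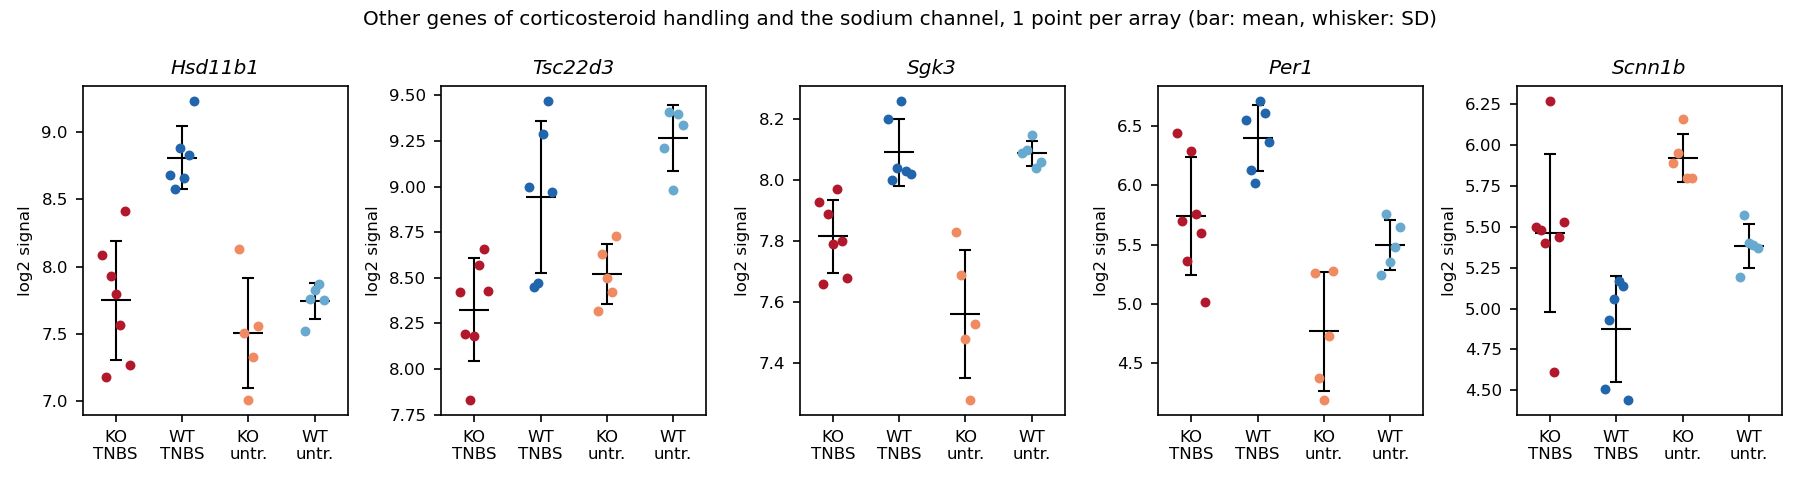
Log2 signal of 5 further genes of corticosteroid handling and of the sodium channel on each array, by group (points: arrays, bar: mean, whisker: SD), each on its own vertical scale. Hsd11b1 in WT with TNBS (8.58 to 9.23) lies above all other arrays, and Sgk3 in untreated KO (7.28 to 7.83) below untreated WT (8.04 to 8.15).

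The list of sodium channel, pump and exchanger regulators had 20 genes measured. With TNBS 0 rose and 2 fell in KO, where 8.55% of all genes passed, and 1 rose and 2 fell in WT, where 16.5% passed. In KO relative to WT 2 rose and 2 fell with TNBS, where 10.5% passed, and 1 rose and 0 fell without it, where 4.83% passed. The 2 of 20 for TNBS in KO, the 3 of 20 in WT and the 1 of 20 for KO against WT without TNBS were near these shares of all genes. Scnn1b, the beta subunit of the channel, read 4.61 to 6.27 in KO with TNBS against 4.44 to 5.17 in WT with TNBS, a difference of 0.59 ± 0.18 (adjusted p = 0.0434). Without TNBS it read 5.80 to 6.16 in KO against 5.19 to 5.57 in WT with no overlap, and the difference of 0.54 ± 0.21 did not pass (adjusted p = 0.147). Scnn1g, the gamma subunit, read 2.19, close to the floor, on every array with TNBS in both genotypes, and 3.24, 2.19, 3.03, 2.19 and 3.65 on untreated KO arrays. Its call for TNBS in KO thus rested on 3 dim arrays, and no size is given for it. Nedd4l, the ubiquitin ligase that Sgk1 inhibits, fell by 0.30 ± 0.08 with TNBS in KO (adjusted p = 0.0221).

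Slc9a2, a second apical sodium and proton exchanger, fell with TNBS in WT (-0.33 ± 0.09, adjusted p = 0.0119) and was higher in KO than in WT with TNBS (0.33 ± 0.08, adjusted p = 0.0103). The kinase Oxsr1 fell by 0.23 ± 0.05 with TNBS in WT. The linker protein Ezr rose there by 0.15 ± 0.04 and was higher in KO than in WT without TNBS by 0.20 ± 0.04. The kinase Wnk1 (-0.15 ± 0.04) and the ligase Nedd4 (-0.21 ± 0.06) were lower in KO than in WT with TNBS.

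The list of anion transport and secretion had 20 genes measured, of which 0 rose and 3 fell with TNBS in KO, where 8.55% of all genes passed, and 0 rose and 3 fell in WT, where 16.5% passed. The 3 of 20 in WT were close to that share of all genes. Slc4a4, a sodium bicarbonate cotransporter of the basolateral membrane, fell most: it read 10.95 to 11.34 in KO with TNBS against 11.50 to 12.16 in untreated KO, and 10.77 to 11.03 in WT with TNBS against 11.04 to 11.78 in untreated WT. Its TNBS differences were -0.65 ± 0.11 in KO (adjusted p = 0.00155) and -0.52 ± 0.12 in WT (adjusted p = 0.00398), without overlap in either. Cftr, the cyclic AMP gated chloride channel, fell by 0.27 ± 0.06 in KO and 0.20 ± 0.06 in WT (adjusted p = 0.00642 and 0.027). Slc16a1, a transporter of short-chain fatty acids, fell in WT (-0.41 ± 0.10, adjusted p = 0.00603), and Gucy2c, the guanylin receptor, named after its value was seen, fell in KO (-0.30 ± 0.08, adjusted p = 0.0324). In KO relative to WT 0 passed with TNBS, where 10.5% of all genes did, and 2 rose without it, where 2.92% did: the potassium channel Kcnq1 (0.39 ± 0.09, adjusted p = 0.0187) and Clca4a (0.53 ± 0.15, adjusted p = 0.0442). In the list of absorptive colonocyte markers, which holds none of the 10 genes, 0 rose and 2 of 11 fell with TNBS in KO, and 0 rose and 5 fell in WT, where 4.47% and 6.27% of all genes fell. In KO relative to WT, 3 rose and 0 fell there with TNBS, against 3.73% of all genes rising, and 0 rose and 1 fell without it, against 1.91% falling. These markers are bright too, so shares over all genes are low for them. With genes dimmer than the median gene left out, 15.8% of genes passed for TNBS in KO and 26.8% in WT. For KO against WT that share was 18.6% with TNBS and 12% without it.

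The 10 genes did not vary as a block within groups. Over the 45 pairs, the correlation of the deviations from the group means over 23 arrays ran from -0.37 to 0.62 with a median of 0.20, and 33 pairs were above 0. The closest pairs were Slc26a3 with Nr3c2 (r = 0.62), Slc26a3 with Car4 (0.60), Aqp8 with Sgk1 (0.59) and Car1 with Sgk1 (0.58), and the lowest was Slc9a3 with Scnn1a (-0.37). Signals of 1 array share its RNA and its scan, so these values are a description.

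Among 14083 genes compared, those most like each of the 10 over all 23 arrays are given here with Pearson's r, which holds the group differences as well. Hsd17b2, a steroid dehydrogenase, was most like Aqp8 (0.895), Plce1 most like Slc26a3 (0.896), Acad11 most like Car4 (0.907) and Fabp2, an enterocyte fatty acid binding protein, most like Car1 (0.886). Nln was most like Car2 (0.869), Foxo3 most like Hsd11b2 (0.893), Gng12 most like Nr3c2 (0.872) and Arhgap17 most like Scnn1a (0.812). For Slc9a3 it was Exoc3 (0.821, and 0.903 within groups), which is the next coding gene to Slc9a3 on chromosome 13 of GRCm38.p6. For Sgk1 they were Ranbp6 (0.877) and Smurf2 (0.862), a ubiquitin ligase. Within groups their r with Sgk1 was 0.583 and 0.665. The log2 difference with TNBS was -0.08 in KO and -0.44 in WT for Ranbp6, and 0.07 in KO and -0.40 in WT for Smurf2. These differences are a description, with no test, since both genes were picked for a pattern like that of Sgk1.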

How the data were processed

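RNA of 23 mouse colon samples, marked with biotin, was read on 1 Affymetrix array per sample. The authors deposited log2 signals of 45101 probe sets per array, from 2.17 to 15.98, with 27.9% of values at the lowest one, so differences of genes near it are understated. RMA and GCRMA, methods that correct background, normalise arrays and summarise probes, are named per the submitters' processing notes. The method used and its version were not given in the sources used here. Precision is limited by the number of arrays.

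Groups came from the sample titles. The platform annotation gave 34958 probe sets 1 gene, 932 several and 9211 none. Gene IDs of 34754 matched the GRCm38.p6 gene table. Each of the 18194 genes took its probe set with the highest mean, and 1658 genes stood at the lowest value on all arrays.

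With limma 3.58.1 in R 4.3.3, 4 group means were fitted to all arrays (19 residual and 0.475 prior degrees of freedom) and 5 contrasts were tested, with Benjamini-Hochberg adjustment over all genes and a threshold of 0.05. The procedure was tested on simulated data. The 10 genes and all lists were chosen with earlier results of these data known, so no count over them is independent evidence. Named genes were the 10, Tnfrsf12a, from each list and comparison up to 2 called genes of each direction with the smallest p, and the 2 genes most correlated with each of the 10, of which a selection is printed. The closing section gives the alternatives. Figures used Python 3.11.15 and matplotlib 3.10.9. List members without a value are not analysed here. No 2 arrays were identical.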

Additional observations from a re-analysis of the deposited data

Results flagged for a closer look

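In 3 of the 40 groups of values tested (10 genes in 4 groups), 1 array stood apart from the rest of its group by more than chance allows in about 1 of 20 groups. Untreated KO array 2 had the lowest Aqp8 signal of its group, log2 10.65, against 10.92 to 10.99 on the other 4. Untreated WT array 5 had the lowest Car2 signal of its group, 13.60, against 13.66 to 13.68. WT array 4 with TNBS had the highest Nr3c2 signal of its group, 10.97, against 10.58 to 10.72. The TNBS effect on Sgk1 differed between KO and WT by 0.42 in log2, the 1 gene of the 10 for which the test of that difference passed.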

How the results depend on the processing

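The 5 comparisons were repeated under 19 other settings (18 for the difference of effects) and without each of the 23 arrays. No called log2 difference of the 10 genes changed sign in 940 values from other settings or in 1150 values without an array, while 41 and 28 uncalled ones did.

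For TNBS in KO the number of the 10 genes called was 4, and it was 2 with the mean of the pan-epithelial list as a covariate, 1 each with those of the absorptive colonocyte, small intestine and squamous lists, and 0 with the leukocyte mean or a minimum log2 change of 0.25. For TNBS in WT it was 4, and it was 2 each with the pan-epithelial, skeletal muscle, small intestine and squamous means and 1 each with the absorptive colonocyte mean, the leukocyte mean and the minimum change. For KO against WT with TNBS it was 2, with 1 under the leukocyte mean and 0 under the minimum change. Without TNBS it was 5, with 3 each for array weights, every probe set on its own and the squamous mean, 2 each for the 2 groups alone and quantile normalization, 1 each for median centring and the leukocyte mean, and 0 each for the skeletal muscle mean, the small intestine mean and the minimum change. For the difference of effects it was 1, with 0 under the minimum change. The absorptive colonocyte and small intestine covariates were chosen after seeing the data. The cause of these changes was not tested. A covariate that differs between the groups takes part of the group difference by its construction, and a minimum change is a stricter test.

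Leaving out 1 array gave 1 to 5 genes for TNBS in KO, 2 to 5 for TNBS in WT, 2 to 4 and 0 to 5 for KO against WT with and without TNBS, and 1 throughout for the difference of effects.

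Replicate numbers recur across groups, but the deviations of same-numbered arrays correlated at -0.45 to 0.39, 8 of 30 pairs over 0.1. For each pair of groups, arrays 1 to 5 of the one were also compared with arrays 1 to 5 of the other. The best match had the same number in 6 of these 30 comparisons, in which arrays recur and each had 5 candidates. With the replicate number as a block, 3, 3, 2, 3 and 1 of the 10 genes were called (TNBS in KO, TNBS in WT, KO against WT with TNBS and without, difference of effects), and the counts over all genes were 1386, 2452, 1230, 738 and 172.

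Over all genes the counts in that order were 1556, 2998, 1902, 879 and 363. Counts that differed by over 1.5 times were, for TNBS in KO, 856 (2 groups alone), 182 (minimum change), 820 (pan-epithelial), 513 (squamous), 61 (leukocyte), 413 (small intestine) and 1014 (without untreated KO array 3). For TNBS in WT they were 4682 (every probe set), 625 (minimum change), 1185 (pan-epithelial), 1005 (squamous), 173 (leukocyte) and 1389 (absorptive colonocyte). For KO against WT with TNBS they were 3345 (every probe set), 179 (minimum change), 1230 (replicate block), 416 (leukocyte) and 1083 (absorptive colonocyte). Without TNBS they were 288 (2 groups alone), 61 (minimum change), 107 (skeletal muscle), 421 (leukocyte), 477 (small intestine), 458 (without WT array 1) and 484 (without KO array 4). For the difference of effects they were 18 (minimum change), 172 (replicate block), 238 (without untreated WT array 1) and 213 (without untreated KO array 4).

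Of the called genes, 62% rose for TNBS in WT, and 43.4% after median centring. For KO against WT without TNBS the share was 60.4%, with 49.7% after quantile normalization and 41.6% after centring. For the difference of effects it was 31.1%, with 41.6% and 41.3%.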
